A study of Mus musculus with 2 samples.

Results

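Mitochondrial ribosomal proteins are encoded in the nucleus, made in the cytosol and imported into mitochondria, where they assemble with ribosomal RNA from the mitochondrial genome into a large and a small subunit. The finished ribosome makes the hydrophobic core subunits of the respiratory chain and the ATP synthase that the mitochondrial genome encodes. Many of its proteins have counterparts in bacterial ribosomes, and others are found only in mitochondria. Their genes were chosen by symbol alone, as array probe sets annotated with exactly 1 symbol that starts with Mrpl or Mrps and a number. This gave 76 genes of 18193 with a single-symbol probe set, 47 named for the large subunit and 29 for the small subunit, with 156 probe sets between them.

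The genes were compared between cultured 4T1 parental cells, a mouse mammary carcinoma line from a BALB/c mouse, and 4T1-3R_L cells, which were recovered in vivo as liver metastatic cells of 4T1-3R and also kept in culture. Total RNA of each was hybridised to 1 expression array. No treatment or added genetic change is given in the labels, which also do not explain 3R. Because neither group has a replicate, no test could be made, and every value describes these 2 arrays.

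Signals are in the arbitrary units of the deposited values, and both arrays had a trimmed mean of 500.003, so they were already on a common scale. A floor of 90.6, the median of all signals, stood in for the background, and 11135 genes reached it on at least 1 array and are called measured. All 76 members were measured, and all were above the floor on both arrays, with signals from 318.9 to 7390. Of 7 epithelial markers, 7 were above the floor on both arrays, including Krt8 (18784 and 21891 in parental and 4T1-3R_L cells) and Cldn7 (5432 and 151). Of 9 hepatocyte markers, 0 reached the floor on either array, the highest signal being 69.6 in parental and 62.6 in 4T1-3R_L cells. Of 5 endothelial markers, 0 reached it on either array, while 1 of 5 leukocyte markers (Cd14) and 1 of 8 fibroblast and stellate markers (Acta2) reached it on both.

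Promoters of 4 members are shown first, because they put side by side members that lay lower and members that lay higher in 4T1-3R_L cells and carry the same short motifs. Each is the 250 bases before the annotated start of the gene, from RefSeq on GRCm38.p6, read 5′ to 3′ on the gene's own strand. Capitals mark an ETS motif (CCGGAAG or its complement, bound by GABPA and related factors) in Mrpl34 and Mrpl52, and an NRF1 motif (GCGCANGCG or its complement) in Mrpl12 and Mrps21. Mrpl34 (chr8:71464676-71464925, plus strand) and Mrpl12 (chr11:120484387-120484636, plus strand) belong to genes with lower signals in 4T1-3R_L cells. Mrps21 (chr3:95871515-95871764, minus strand) and Mrpl52 (chr14:54426659-54426908, plus strand) belong to genes with higher signals there.

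Mrpl34: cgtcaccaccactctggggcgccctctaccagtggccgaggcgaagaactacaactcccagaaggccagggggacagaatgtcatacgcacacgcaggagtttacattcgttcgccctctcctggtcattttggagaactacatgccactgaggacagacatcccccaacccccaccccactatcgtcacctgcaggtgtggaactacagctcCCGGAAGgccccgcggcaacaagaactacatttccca

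Mrpl12: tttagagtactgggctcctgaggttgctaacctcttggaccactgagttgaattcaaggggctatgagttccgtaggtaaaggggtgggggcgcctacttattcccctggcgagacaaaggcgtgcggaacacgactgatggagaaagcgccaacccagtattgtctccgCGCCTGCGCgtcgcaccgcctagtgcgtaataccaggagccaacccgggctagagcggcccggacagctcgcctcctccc

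Mrps21: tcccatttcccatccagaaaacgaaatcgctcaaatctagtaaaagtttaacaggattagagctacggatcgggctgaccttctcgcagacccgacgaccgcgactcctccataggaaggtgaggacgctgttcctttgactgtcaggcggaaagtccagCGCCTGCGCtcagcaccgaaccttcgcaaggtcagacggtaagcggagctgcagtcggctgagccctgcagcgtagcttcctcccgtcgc

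Mrpl52: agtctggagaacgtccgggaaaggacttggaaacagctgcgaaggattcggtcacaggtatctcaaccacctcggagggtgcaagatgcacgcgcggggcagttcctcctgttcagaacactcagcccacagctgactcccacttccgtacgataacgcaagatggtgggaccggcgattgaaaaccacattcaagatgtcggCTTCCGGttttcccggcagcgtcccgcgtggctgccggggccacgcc

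Mitochondrial ribosomal protein genes lay lower in 4T1-3R_L cells than in parental cells as a group. The median log2 ratio of 4T1-3R_L over parental signal was -0.47 over the 76 genes, with the middle of the distribution from -0.82 to -0.18, against a median of -0.0066 for all measured genes. The log2 ratio was under 0 for 64 of the 76 genes, a share of 84.2%, beside 50.5% of all measured genes. At least 1.5-fold lower signals were found for 31 members (40.8%), beside 14.0% of all measured genes, and at least 1.5-fold higher signals for 1 member (1.32%), beside 15.8%. At the stricter 2-fold limit, 9 members (11.8%) were lower, beside 4.48% of measured genes, and 0 were higher, beside 6.22%.

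The members sit in a limited range of signal, so the same shares were also taken over 3825 measured genes whose mean signal lay between 801 and 3393, the 10th and 90th percentiles of the members. Of these genes, 54.7% had a log2 ratio under 0. At the 1.5-fold limit 16.2% were lower and 14.0% higher, and at the 2-fold limit 4.73% and 4.71%. Of the 60 members in that range, 85% had a log2 ratio under 0, also above the share of these genes. At least 1.5-fold lower were 38.3% and at least 2-fold lower 10%, above these values too, and 0 were higher at either limit. In RNA from whole cultures, less transcript in each cell and fewer cells that carry it cannot be told apart. Scaling the arrays to the bacterial and phage control transcripts added before hybridisation moved the median of all measured genes to -0.55 and that of the members to -1.06, which left the members 0.51 below the median gene. Group values are therefore read against the median measured gene.

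**Figure D1:**
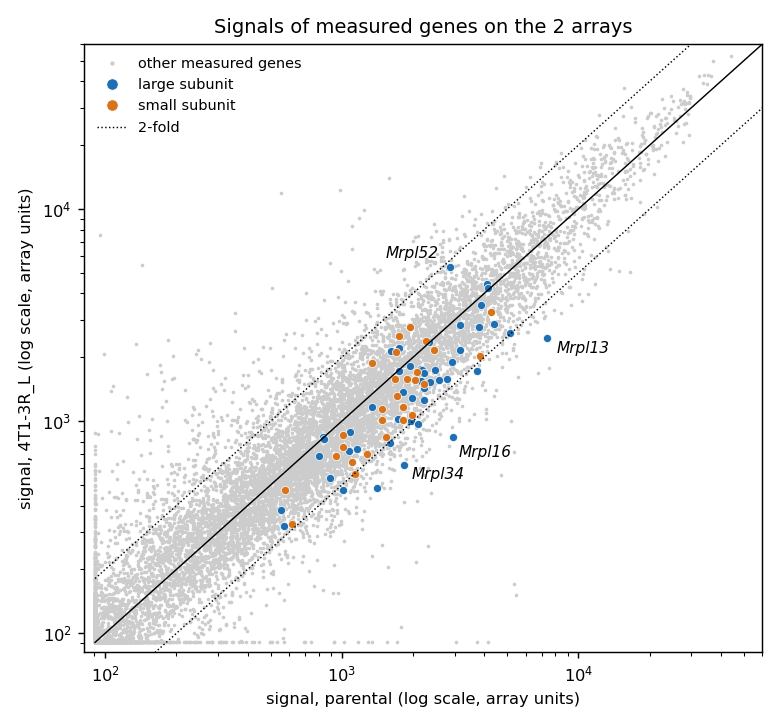
Signal in 4T1-3R_L cells (vertical, log scale, array units) against signal in parental cells (horizontal, log scale, array units) for the 11135 measured genes, with signals under 90.6 drawn at that value. Coloured points are the 47 large and 29 small subunit genes, the solid line marks equal signals and the dotted lines 2-fold; 9 members lie below the lower dotted line and 0 above the upper one.

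The lowest member was Mrpl16, the counterpart of a bacterial protein close to the tRNA binding sites of the large subunit. Its signal was 2951 in the parental and 843.5 in the 4T1-3R_L culture, a 3.5-fold difference (log2 ratio -1.81), and it had no second measured probe set. Mrpl13 had signals of 7390 and 2473, a 2.99-fold difference (log2 ratio -1.58). Its second probe set gave 4391 and 2696, lower as well but by a smaller amount (log2 ratio -0.70). Mrpl34 had signals of 1835 and 619.7, or 2.96-fold lower, and Mrpl21 signals of 1403 and 485.7, or 2.89-fold lower. Their second probe sets were dim and did not repeat this size. That of Mrpl34 read 117.1 and 82.1 (log2 ratio -0.37 with the second signal raised to the floor), and that of Mrpl21 read 127.5 and 175.4, in the opposite direction (log2 ratio 0.46).

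The 5 other members at least 2-fold lower were closer to that limit. Mrpl11, which forms the base of the stalk that receives translation factors, had signals of 2103 in parental and 969.1 in 4T1-3R_L cells, a log2 ratio of -1.12. Its second probe set gave -0.80. Mrpl15 had 3722 and 1728 (log2 ratio -1.11), and its second probe set 4042 and 1264 (-1.68). Both of these Mrpl15 probe sets are of a type that can bind related transcripts, and its plain probe set gave 0.070. Mrpl36, the counterpart of the smallest bacterial large-subunit protein, had 1016 and 473.8 (log2 ratio -1.10) with no second measured probe set. Mrpl19 had 1603 and 788.9 (log2 ratio -1.02), and its second probe set was lower by more, at 1226 and 433 (-1.50). The only small subunit gene among the 9 was Mrps31, which has no bacterial counterpart, at 1132 and 566 (log2 ratio -1.0004), on the limit itself. Just short of it lay Mrpl12 (-0.98), Mrpl40 (-0.97) and Mrps34 (-0.93).

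Of the 12 members with higher signals in 4T1-3R_L cells, 1 was at least 1.5-fold higher. This was Mrpl52, a large subunit protein without a bacterial counterpart, at 2863 in parental and 5328 in 4T1-3R_L cells, or 1.86-fold higher (log2 ratio 0.90). Its second probe set gave 1615 and 2233, higher too, with a log2 ratio of 0.47. Mrps21 followed with 1739 and 2514 (log2 ratio 0.53), while its dimmer second probe set read 156.8 and 186.3 (0.25). Higher signals were also read for Mrps6 (1944 and 2775), Mrps16 (1347 and 1882), Mrpl41 (1610 and 2142), Mrpl33 (1745 and 2208) and Mrps24 (1693 and 2115), with log2 ratios of 0.51, 0.48, 0.41, 0.34 and 0.32. For 3 of these genes the second probe set was lower in 4T1-3R_L cells, with log2 ratios of -0.23 in Mrps6, -0.12 in Mrpl41 and -0.61 in Mrps24. Mrps16 and Mrpl33 had no second measured probe set. Mrpl51 (4123 and 4447) and Mrpl24 (4140 and 4247) were nearly equal on the 2 arrays, with log2 ratios of 0.11 and 0.037. Of the 12 higher members, only Mrpl52 and Mrps21 were higher on 2 probe sets. With the arrays scaled to the hybridisation controls 75 of the 76 members were lower, all but Mrpl52. That scaling also put the median of all measured genes at -0.55, so this count alone says little about the members. The share of all measured genes that was lower was not counted there.

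**Figure D2:**
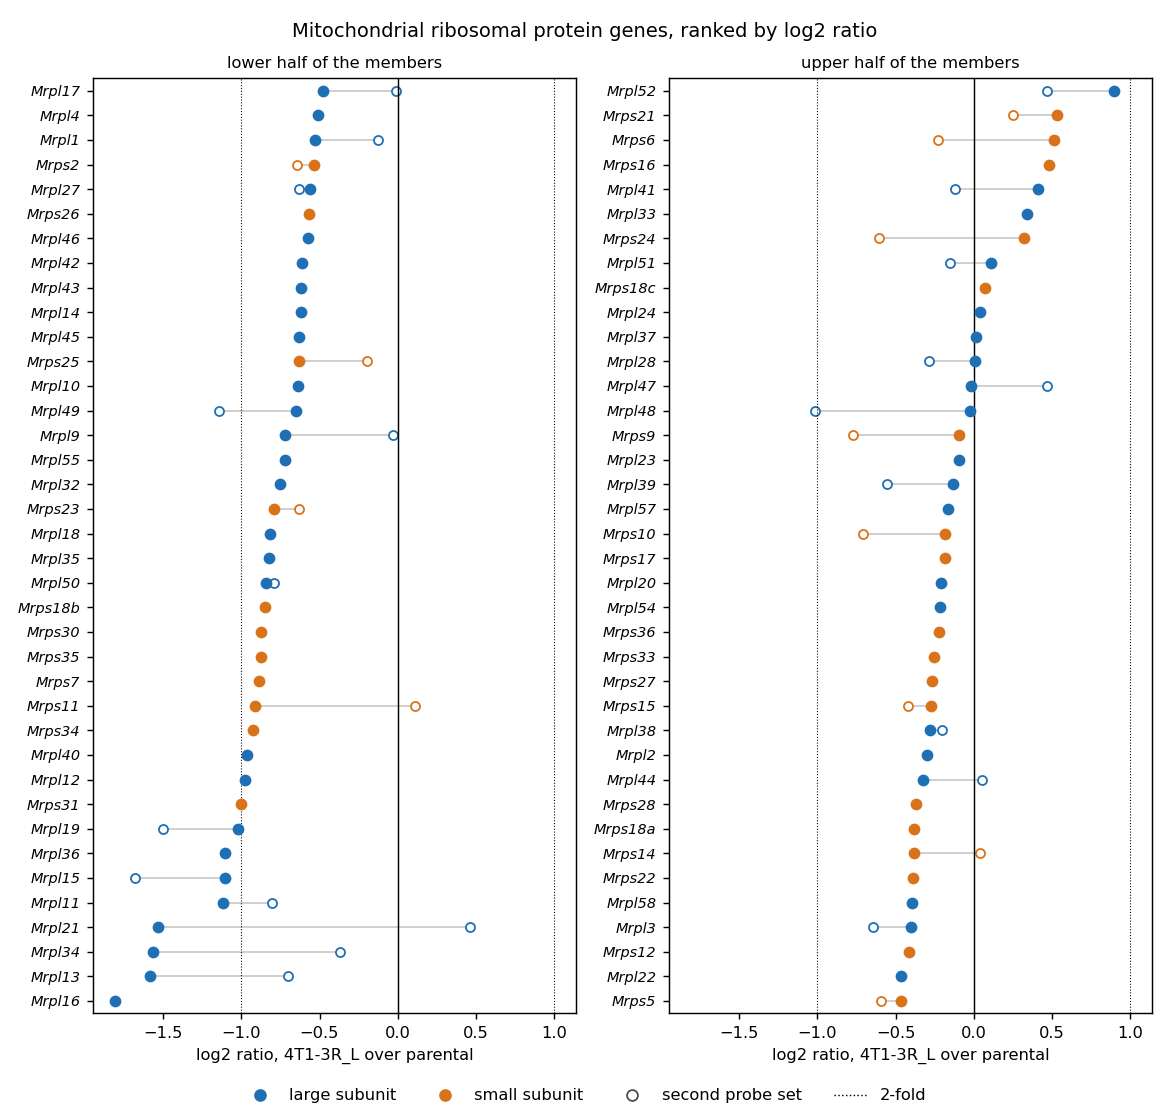
Log2 ratio of 4T1-3R_L over parental signal (horizontal) for each of the 76 genes, ranked, in 2 panels. Filled points are the probe set used, blue for the large and orange for the small subunit; open points are second measured probe sets, which 34 genes have, joined to their gene by a grey line. Of the filled points 64 lie left of 0, and 3 open points lie 1 or more from their filled point.

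Second probe sets gave a check of the arrays rather than of the cells. Of the 34 members with 2 measured probe sets, 24 had the same sign on both, 22 of them negative on both and 2 positive on both. The sign turned from lower to higher in 5 and from higher to lower in 5. Over these 34 genes the median log2 ratio was -0.43 on the first and -0.40 on the second probe sets, and 27 were negative on each. Across the 34 genes, which share the same 2 arrays, Pearson's r between the probe sets was 0.33 and Spearman's rho 0.34. The median of the 34 genes was thus alike on both probe sets, while the order of single genes was poorly repeated. The 3 genes whose probe sets lay at least 1 apart were Mrpl21, Mrpl34 and Mrps11, each with a second signal near or under the floor on at least 1 array. Mrps11 had 613.1 and 326.3 on the first (log2 ratio -0.91), but 67.9 and 97.7 on the second (0.11 with the first signal raised to the floor). In the 18 genes whose second probe set had at least 4 times the floor on both arrays, r was 0.61. There the first probe sets had a median of -0.30 with 13 negative, and the second a median of -0.62 with 16 negative. Of the probe sets used for the 76 genes, 44 have names in plain _at, 23 in _a_at, 6 in _s_at and 3 in _x_at.

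Large subunit genes were lower by a little more than small subunit genes, but the order depended on the probe sets. The median log2 ratio was -0.56 over the 47 large subunit genes and -0.38 over the 29 small subunit genes, a difference of -0.18. In the large subunit, 40 of 47 had a negative log2 ratio (85.1%), and 22 (46.8%) passed the 1.5-fold and 8 (17.0%) the 2-fold limit on the lower side. The same counts in the small subunit were 24, 9 and 1 of 29 (82.8%, 31.0% and 3.45%). Shares over all measured genes were 50.5%, 14.0% and 4.48%. On second probe sets the medians were -0.33 over 22 large subunit genes and -0.51 over 12 small subunit genes, so the difference turned to 0.18. With the first probe sets of those same genes the medians were -0.50 and -0.33. In the brighter second probe sets they were -0.64 over 13 and -0.61 over 5 genes. No difference between the subunits can therefore be read from these arrays.

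Some genes are named for a subunit that they are not part of in the known structures. Mrps18a and Mrps30 sit in the large subunit of the assembled mitochondrial ribosome, and the product of Mrps36 is now known as a part of the oxoglutarate dehydrogenase complex. Mrps30 had signals of 1280 in parental and 699.4 in 4T1-3R_L cells (log2 ratio -0.87), and Mrps36 had 1007 and 862.7 (-0.22). Placing the genes by structure gave medians of -0.56 over 49 large subunit genes and -0.38 over 26 small subunit genes, hardly changed. Mammals have 3 proteins related to bacterial S18, and the log2 ratios of their genes differed on these arrays. Mrps18b had 1822 and 1013 (log2 ratio -0.85), Mrps18a had 1718 and 1320 (-0.38), and Mrps18c had 2272 and 2389 (0.072). Each had only 1 probe set, so these differences could not be checked.

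On the first probe sets, ancestry classes lay in opposite orders in the 2 subunits. In the large subunit, the 29 genes with bacterial counterparts had a median log2 ratio of -0.64, with 16 (55.2%) at least 1.5-fold lower. The 18 mitochondria-specific genes had a median of -0.30 with 6 (33.3%) at least 1.5-fold lower. The share of all measured genes at least 1.5-fold lower was 14.0%. In the small subunit, 18 genes with bacterial counterparts had a median of -0.32 with 3 (16.7%) at least 1.5-fold lower, near that share. The 11 mitochondria-specific genes there had a median of -0.63 with 6 (54.5%) at least 1.5-fold lower. All 11 of these were negative, from Mrps31 at -1.0004 to Mrps36 at -0.22, and they include Mrps30 and Mrps36 by symbol. Over both subunits the 2 classes lay close together, at -0.48 over 47 and -0.40 over 29 genes. These are medians over few genes on 1 pair of arrays and were not tested. The classes were not compared on second probe sets, so the opposite orders are not known to repeat there. Of the small mitochondria-specific genes, only Mrps23 (-0.63) and Mrps25 (-0.20) had a second measured probe set.

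**Figure D3:**
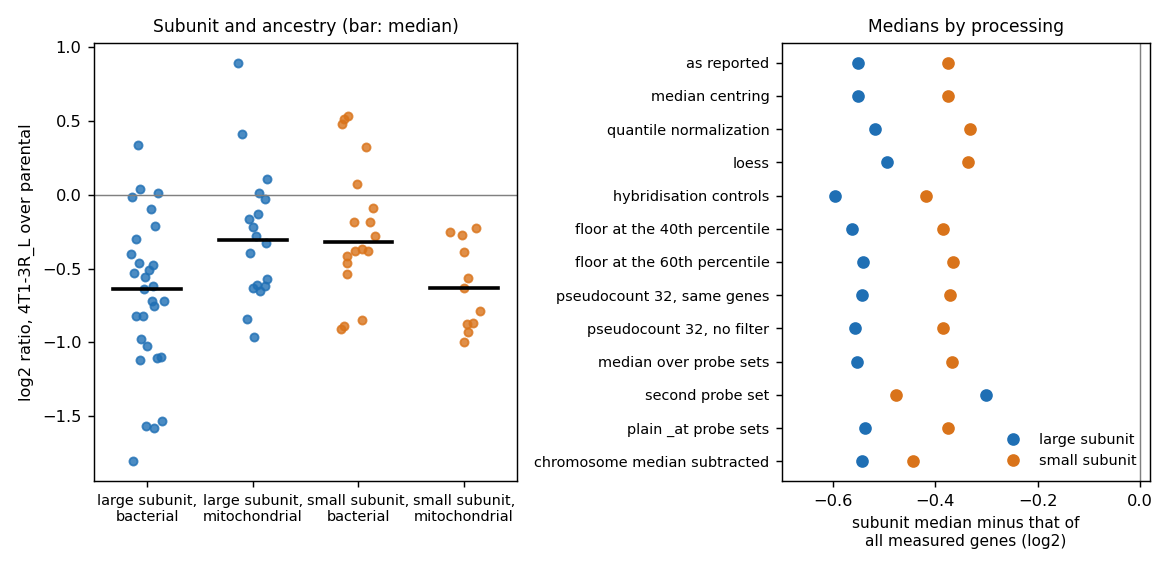
Left, log2 ratio of 4T1-3R_L over parental signal (vertical) by subunit, blue large and orange small, and by whether the protein has a bacterial counterpart, with 29, 18, 18 and 11 genes from left to right and bars at the medians of -0.64, -0.30, -0.32 and -0.63. Right, each subunit's median minus that of all measured genes (horizontal, log2) under the reported processing and 12 alternatives; all points lie below 0, and large lies to the right of small with second probe sets alone.

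Values are given next by functional region of the large subunit, over few genes and with no test between regions. The genes were placed in regions by hand, so a region may lack genes that belong to it. The 3 stalk genes, whose products bring translation factors to the ribosome, had log2 ratios of -1.12 (Mrpl11), -0.98 (Mrpl12) and -0.64 (Mrpl10). Mrpl12, which also binds the mitochondrial RNA polymerase, had signals of 5152 in parental and 2616 in 4T1-3R_L cells. All 8 genes assigned to the central protuberance, the crown of the large subunit, were negative, with a median of -0.57. They ran from Mrpl40 (1960 and 1004, log2 ratio -0.97) to Mrpl48 (843.9 and 828.6, -0.026). The second probe set of Mrpl48 gave 1041 and 515.6 (-1.01), so its place within the region is open to the choice of probe set. At the tunnel exit, where the new chain leaves the ribosome, the median over 6 genes was -0.28. Mrpl45, which holds the ribosome at the inner membrane, was the lowest of them with 2366 and 1528 (log2 ratio -0.63), and Mrpl24 was the 1 with a positive value.

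Members were spread over 17 chromosomes, and their median was negative on 16 of them. The exception was chromosome 14, which holds Mrpl52, Mrps16 and Mrpl57 (median 0.48) and whose 373 measured genes had a median of 0.20. The 5 members on chromosome 19, Mrpl16, Mrpl21, Mrpl11, Mrpl49 and Mrpl43, were all lower, with a median of -1.12, and the 398 measured genes of that chromosome lay at -0.39, the lowest of the 17. Without these 5 the members' median was -0.42 over 71 genes, with 6 at least 2-fold lower, so chromosome 19 held 3 of the 9. Of the 76 members, 65 lay below the median of their own chromosome. After subtraction of the chromosome medians the members' median was -0.48, Mrpl16 lay at -1.42 and Mrpl52 at 0.69.

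Promoters of the members held the motifs of known regulators of mitochondrial genes more often than promoters at large. Of the 76 members, 67 had an entry in the RefSeq promoter table, with 73 windows of 300 bases that include the first 50 bases after the start. The ETS motif CCGGAAG was found on either strand in 34.2% of member windows, in 8.86% of all 32851 windows and in 17.7% of the 11535 windows of other measured genes. The NRF1 motif GCGCANGCG was found in 20.5%, 6.25% and 13.2%, and the YY1 motif AAGATGGCG in 11.0%, 1.4% and 2.99%. The ends of these motifs can overlap, as in the AAG shared by ETS and YY1, and a site can match NRF1 on both strands. At least 1 of the 3 motifs was present in 40 of the 67 genes. By window the share was 54.8% in members, 14.8% in all windows and 29.8% in windows of other measured genes. Members with the ETS motif had a median of -0.40 (25 genes) and members without it -0.55 (42 genes), while for NRF1 the medians were -0.56 (15 genes) and -0.40 (52 genes). For YY1 they were -0.50 (8 genes) and -0.46 (59 genes), and for any of the 3 motifs -0.44 (40 genes) and -0.47 (27 genes). The 4 promoters printed above were picked to pair a lower with a higher member for each motif and show no more than that. A match is a description of the letters and was not taken as a binding site.

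Promoter windows that overlap one of another gene on the opposite strand were also more frequent among members, in 23 of 67 (34.3%), than among other measured genes with an entry (19.5%). Both genes were measured in 20 of these pairings. The partner's log2 ratio was under 0 in 17 of the 20, beside 50.5% of all measured genes. The partners' median was -0.33 against -0.59 for the members. Partners of other measured genes were not compared, and a link between partners was not tested. Mrps11 and Mrpl46 are partners of each other (-0.91 and -0.57) and count on both sides. Other pairs were Mrpl43 and the mitochondrial helicase gene Twnk (-0.62 and -0.38), Mrpl32 and the proteasome gene Psma2 (-0.75 and -0.57), and Mrps12 and the mitochondrial synthetase gene Sars2 (-0.42 and -0.49). Partners with higher signals were Zfp189 beside Mrpl50 (0.35), Zfp661 beside Mrps5 (0.38) and Klc4 beside Mrpl2 (0.84). These named pairs were picked after their values were seen.

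Proteins of the mitochondrial ribosome that carry other symbols were lower too. Gadd45gip1, a large subunit protein, had signals of 991.8 in parental and 339 in 4T1-3R_L cells, or 2.93-fold lower (log2 ratio -1.55). Its second probe set gave -0.48. Ptcd3, which sits where the mRNA enters the small subunit, had 1744 and 939.9 (log2 ratio -0.89). Dap3, a GTP-binding small subunit protein, had 4917 and 3601 (-0.45), and Chchd1, another small subunit protein, had 4390 and 3830 (-0.20). All 4 were negative, as most Mrpl and Mrps genes were.

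Genes that build and serve the mitochondrial ribosome lay on the same side. Of 25 measured genes for its assembly and rRNA modification, 22 were negative (88%), beside 50.5% of all measured genes. At the 1.5-fold limit 10 (40%) were lower and 0 higher, beside 14.0% and 15.8%, and the list had a median of -0.51. The GTPase gene Noa1, needed for small subunit assembly, had signals of 1832 and 414.1, or 4.42-fold lower (log2 ratio -2.15). Gtpbp10, a GTPase of large subunit assembly, had 626.1 and 310.6 (-1.01, and -0.98 on its second probe set). Mettl17, a small subunit assembly factor, had 621.9 and 335.5 (-0.89, but -0.012 on its second probe set), and Mrm3, which methylates the large ribosomal RNA, had 654.6 and 370.4 (-0.82). The 9 second probe sets of this list had a median of -0.012, against -0.52 on the first probe sets of the same genes, so the list's position is not repeated there.

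Of 13 measured translation factors and related proteins, 11 were negative (84.6%) and 3 at least 1.5-fold lower (23.1%), with a median of -0.33. Shares over all measured genes were 50.5% and 14.0%. Lrpprc, which stabilises mitochondrial mRNAs, had signals of 1744 and 734.7 (log2 ratio -1.25), and the elongation factor gene Tsfm 934.3 and 419.4 (-1.16). Gfm2, for ribosome recycling, had 418.5 and 225.9 (-0.89), but 0.024 on its second probe set. Guf1, an elongation factor of the same GTPase family, had 323.9 and 222.3 (-0.54). The 6 second probe sets of this list had a median of 0.081. Of 18 measured mitochondrial aminoacyl-tRNA synthetase genes, 14 were negative (77.8%) and 9 at least 1.5-fold lower (50%). Their median was -0.54, and -0.53 on 10 second probe sets. Yars2 was the lowest with 563.3 and 270.9 (log2 ratio -1.06), followed by Iars2 with 1152 and 585.6 (-0.98), Tars2 with 1013 and 540.9 (-0.91, but -0.15 on its second probe set) and Ears2 with 161.8 and 74, the last at least 1.79-fold lower because its 4T1-3R_L signal was under the floor.

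Genes for mitochondrial DNA upkeep, transcription and RNA processing were lower in 16 of 18 (88.9%), beside 50.5% of all measured genes. Of them 6 (33.3%) were at least 1.5-fold lower, beside 14.0%, and their median was -0.35. Pnpt1, part of the mitochondrial RNA decay machinery, had signals of 1221 and 590.4 (log2 ratio -1.05), the transcription elongation factor gene Tefm 693.6 and 353 (-0.97), and the DNA polymerase gene Polg 1054 and 552.8 (-0.93). Supv3l1, the helicase partner of Pnpt1, had 1083 and 596.8 (-0.86), but 0.57 on its second probe set. Of 10 measured nuclear regulators of mitochondrial genes, 7 were negative (70%) and the median was -0.13. At the 1.5-fold limit 2 (20%) were lower and 1 (10%) higher, beside 14.0% and 15.8% of all measured genes. The transcription factor gene Myc had 3799 and 1760 (-1.11) and the coactivator gene Pprc1 1801 and 887.5 (-1.02), with no second measured probe set for either. Ppargc1b, another coactivator of that family, was 1.63-fold higher with 271.9 and 444.5 (0.71), and Esrra, a nuclear receptor, had -0.44 on the first and 0.58 on the second probe set.

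Genes for protein import into mitochondria, which the members depend on, lay lower as well. Of 23 measured import genes, 18 were negative (78.3%), and 10 (43.5%) passed the 1.5-fold and 5 (21.7%) the 2-fold limit on the lower side. Shares over all measured genes were 50.5%, 14.0% and 4.48%. The import genes had a median of -0.50, and -0.32 on 15 second probe sets. Tomm22, a receptor of the outer membrane, had signals of 4076 and 1025, or 3.98-fold lower (log2 ratio -1.99). Tomm40, the pore of the outer membrane, had 2139 and 868.4 (-1.30), Timm8a1, a carrier between the membranes, 3289 and 1411 (-1.22), and Hspe1, a chaperone of the matrix, 10598 and 5206 (-1.03).

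The respiratory chain and the cytosolic ribosome did not share this position. Of 69 measured nuclear-encoded subunits of the respiratory chain and ATP synthase, 31 were negative (44.9%, beside 50.5% of all measured genes). At the 1.5-fold limit 6 (8.70%) were lower and 3 (4.35%) higher, beside 14.0% and 15.8%. The median was 0.032, and 0.052 on 44 second probe sets, and relative to all measured genes its sign turned with plain _at probe sets (-0.14), quantile normalization (-0.020), loess (-0.043) and the hybridisation controls (-0.0056), so it is not settled. Single subunits differed in both directions. Ndufb9, of complex I, had 16586 in parental and 5028 in 4T1-3R_L cells (log2 ratio -1.72), Uqcrfs1, the iron-sulfur subunit of the cytochrome b-c complex, 5345 and 2322 (-1.20), Uqcrq, of that complex too, 4095 and 2133 (-0.94) and Ndufv3, of complex I, 3323 and 7467 (1.17). Of 43 measured cytosolic ribosomal protein genes, 13 were negative (30.2%), and at the 1.5-fold limit 1 was lower and 1 higher (2.33% each). Their median of 0.15 exceeded that of the measured genes by 0.15, but lay under it with quantile normalization (-0.061), loess (-0.068) and plain _at probe sets (-0.068), so its sign is not settled. The 4 values largest in size were those of Rpl39 (510.9 and 190.9, log2 ratio -1.42), Rpl27a (361.9 and 583.8, 0.69), Rpl12 (820.7 and 562.8, -0.54) and Fau (20925 and 14637, -0.52). The probe sets of Rpl39, Rpl27a and Rpl12 were far dimmer than most on that list and may not read the main transcript. Only 44 of the 79 genes on that list had a single-symbol probe set, and none of the 15 mitochondrially encoded genes did, so transcripts of the mitochondrial genome, its ribosomal RNAs included, were not analysed here. Many genes of these 2 lists were brighter than the range of 801 to 3393 that holds most members. Examples are Rps29 (37209 and 49792) and Cox6a1 (20274 and 28453). The lists were not compared with the members at like signal, and their differences were not tested.

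**Figure D4:**
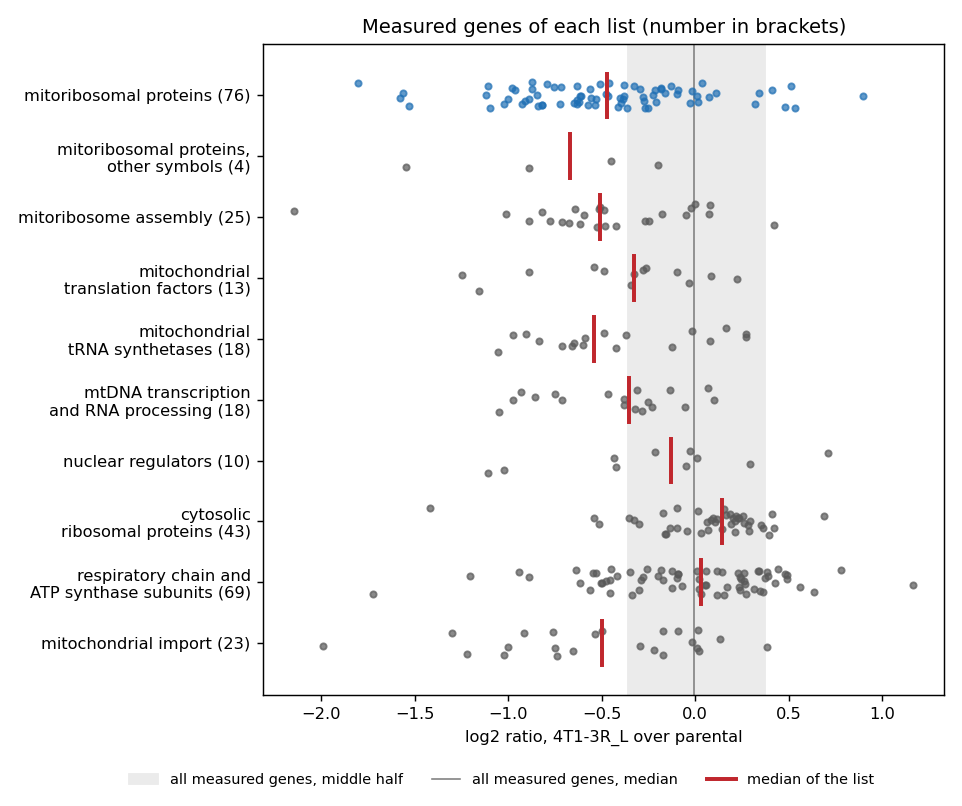
Log2 ratio of 4T1-3R_L over parental signal (horizontal) for each measured gene of 10 groups, 1 row per group with its number of genes in brackets. Red bars are group medians, the grey line and band the median and the middle range (quartiles) of all measured genes; the bar of the 76 members stands at -0.47, those of the respiratory chain and the cytosolic ribosomal proteins at 0.032 and 0.15.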

How the data were processed

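RNA of 2 mouse cell cultures was measured on 1 array each. The authors deposited linear intensity values, 1 for each probe set, made with MAS5 per the submitters' processing notes. Its version and scaling target are not given here. MAS5 combines perfect-match and mismatch probes and scales each array as a whole, so only differences relative to the other genes of an array are kept.

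From there, both arrays were scaled to a common mean after trimming 2% at each end, signals under 90.6 (the 50th percentile of both arrays) were raised to it, and log2 was taken. Names of probe sets came from GEO's platform annotation and the GRCm38.p6 RefSeq gene table. Of 45101 probe sets, 34945 non-control ones had 1 symbol. Each gene was read from its brightest probe set (mean log2 signal), and was measured where that reached the floor on either array. The 2 arrays and the absence of replicates limit the precision, and no test was run. Members, lists, limits and alternatives were chosen with earlier results of these data known. Gene names followed a rule: the 8 highest and 8 lowest members, those 2-fold apart, the 3 with the highest signal, those with discordant second probe sets, those misnamed by subunit, and up to 4 of each list with the largest log2 ratio in size; others are examples chosen after their values were seen. The calculation was tested on simulated data in which all probe sets of a gene changed alike. Their noise was smaller than the spread between real first and second probe sets, a standard deviation of 0.55 over all genes. That test does not show how reliable these ratios are. Protein sequences were not used here. Work was done in Python 3.11.15 with numpy, pandas 2.3.3 and statsmodels 0.14.6.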

Additional observations from a re-analysis of the deposited data

How the results depend on the processing

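Under median centring, a floor at the 40th percentile and a pseudocount of 32 on the same genes, every group median and count given here stayed within 0.1 (log2) or 1.5 times of its reported value. The members' median stayed below that of all measured genes under the 12 alternatives run over all genes, by 0.37 to 0.51 (from -0.51 to -0.37), and was 0.41 below genes of the members' signal range (-0.41). Scaling to the hybridisation controls gave medians of -1.06 (members), -1.15 (large) and -0.97 (small), with 64 members 1.5-fold and 41 members 2-fold lower, and 0 members 1.5-fold higher. The median of all measured genes was -0.55 under that scaling, and their shares beyond these limits were not counted. Second probe sets exist for 34 members, so counts fall by construction to 27 negative, 15 lower by 1.5-fold, 4 lower by 2-fold and 0 higher by 1.5-fold. There the large and small medians were -0.33 and -0.51 (-0.30 and -0.48 relative to all measured genes) and their difference turned to 0.18. Relative to all measured genes on second probe sets, assembly lay at 0.016, translation factors at 0.11, regulators at -0.26, cytosolic ribosomal proteins at 0.25 and import at -0.29, and the sign turned in 10 members, 5 in each direction. Among named genes lower by 1.5-fold it turned in Mrpl21 (0.46), Mrps11 (0.11), Gfm2 (0.024) and Supv3l1 (0.57), and among named genes within 1.5-fold in Mrps24 (-0.61), Mrps6 (-0.23), Mrpl41 (-0.12), Mrpl51 (-0.15) and Esrra (0.58). With brighter second probe sets, chosen after seeing the data, the members' median was -0.62, the small subunit's -0.61 and the difference -0.034. Plain _at probe sets exist for 60 members, and other lists can lose genes there too. They gave 0 members at least 1.5-fold higher, Mrpl21 at 0.46 and Mrpl15 at 0.070. List medians relative to all measured genes were then -0.32 (assembly), -0.34 (synthetases), 0.0015 (regulators), -0.068 (cytosolic ribosomal proteins), -0.14 (respiratory chain) and -0.68 (import). Taking the middle value of all probe sets of a gene gave 5 members 2-fold lower, 0 members 1.5-fold higher, and -0.28, -0.38 and -0.35 for assembly, synthetases and import. Synthetases lay at -0.41 with a floor at the 60th percentile, -0.42 without a filter (regulators -0.31) and -0.40 after subtraction of chromosome medians. That subtraction gave 2 members at least 1.5-fold higher and cytosolic ribosomal proteins at 0.042, which lay at -0.061 with quantile normalization and -0.068 with loess. Over all settings, values of single genes crossed the 1.5-fold limit outward in 14 cases and inward in 18. The causes were not tested beyond the smaller numbers of genes named. No paired analysis was possible because each group has 1 array. Second probe sets near the floor and the lack of replicates limit what single genes can show.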

Other observations

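Probe sets that carry the symbol of a mitochondrial ribosomal protein gene together with another symbol were left out by the rule on single symbols. Of these, 1 probe set shared by Mrpl30 and Gm6238 had signals of 6378 in parental and 5200 in 4T1-3R_L cells (log2 ratio -0.29), and another of the same pair read 74.4 and 43.5, under the floor on both arrays. The one shared by Mrpl53 and Ccdc142 had 1936 and 1372 (-0.50). The last, shared by Mrps34 and Nme3, had 775 and 651.5 (-0.25), beside -0.93 on the Mrps34 probe set of its own. Signals of the genes that share such a probe set cannot be told apart.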
